A study of Mus musculus with 6 samples.

Results

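The Ifitm (interferon induced transmembrane) family and the genes of the interferon response were examined in 2 populations of neonatal mouse prostate cells. They comprised 37 of the 36163 gene names on the array and were taken by name: the 6 Ifitm genes Ifitm1, Ifitm2, Ifitm3, Ifitm5, Ifitm6 and Ifitm7, 19 other interferon-induced genes, 8 transcription factors and 4 receptor subunits. The group was selected on the measured log2 differences between the populations, the Ifitm genes standing out from the rest, and the study picked Ifitm1 as one of its array genes from these same samples. The differences of the members are therefore a description. Where members are counted against a threshold, the count describes the same values that chose them and supports nothing.

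The mice were FVB/N males of the Tg 11.5kb-GFP line, in which the s-SHIP promoter drives GFP, at 6 days of age. Prostate cells negative for the lineage markers Ter119, CD31 and CD45 and positive for Sca-1 and CD49f (LSC cells) were sorted into LSC GFP+ and LSC GFP- cells, so that both populations carried the same transgene and differed in GFP fluorescence alone by design. RNA of 3 independent samples per population was amplified, labeled with Cy3 and hybridized to 1 array each, 6 arrays on 1 slide. GFP marks cells in which the transgenic promoter is active, which is not a measure of the SHIP1 gene itself, and the probe of that gene, Inpp5d, cleared the background on none of the arrays.

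Interferons are secreted proteins that bind receptor pairs at the cell surface, Ifnar1 with Ifnar2 for type I interferons and Ifngr1 with Ifngr2 for interferon gamma. The receptors activate Jak kinases, which phosphorylate Stat proteins, and a complex that includes Stat2 and Irf9 then switches on a large set of antiviral genes through a DNA element known as the ISRE. The Ifitm proteins are small membrane proteins: Ifitm1, Ifitm2 and Ifitm3 restrict the entry of viruses into cells and can be induced by interferon, whereas Ifitm5 is known from bone-forming cells. Ifitm genes are also known to be expressed in germ cells and in stem cells without added interferon, so that their level is not by itself a readout of interferon signalling.

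The levels of the 3 antiviral Ifitm genes rested on separate array probes of 60 bases, and their first 30 bases are shown because the question of which family member was measured depends on them. Each probe is written from its 5′ end.
Ifitm1 probe: tgtgacactcacaaatctgtccatggtgga
Ifitm2 probe: acctctgtggtagtctttcagtcttttgca
Ifitm3 probe: cttaacgctcaaaaccttcacacttaatag
The array design placed them in mm9 at chr7:148155659-148155718 on the plus strand for Ifitm1, chr7:148140881-148140940 on the minus strand for Ifitm2 and chr7:148195591-148195650 on the minus strand for Ifitm3. Laid over each other at the best offset, no pair of Ifitm probes shared more than 24 identical bases. The Ifitm3 probe shared no run of 20 bases with any other probe of the array, the Ifitm1 probe shared one with 1 other probe and the Ifitm2 probe with 3. The brighter of the 2 Ifitm7 probes stood apart, with such a run in 51 other probes.

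The 250 bases upstream of the RefSeq transcription start (GRCm38.p6) are shown for the same 3 genes and for Isg15, a classical interferon-induced gene whose measured difference ran the other way. Capitals mark every match to GAAANNGAAA, the core letters of an ISRE, on either strand, and overlapping matches are merged.
Ifitm1, chr7:140967826-140968075, plus strand: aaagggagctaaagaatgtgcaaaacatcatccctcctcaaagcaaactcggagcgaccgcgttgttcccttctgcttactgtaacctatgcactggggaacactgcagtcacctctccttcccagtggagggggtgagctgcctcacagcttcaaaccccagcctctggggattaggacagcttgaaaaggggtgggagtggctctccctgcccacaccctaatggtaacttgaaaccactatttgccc
Ifitm2, chr7:140955962-140956211, minus strand: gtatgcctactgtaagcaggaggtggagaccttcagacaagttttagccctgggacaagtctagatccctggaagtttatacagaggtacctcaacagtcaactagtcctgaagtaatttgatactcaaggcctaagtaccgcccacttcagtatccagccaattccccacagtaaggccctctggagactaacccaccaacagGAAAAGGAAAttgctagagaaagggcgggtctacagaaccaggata
Ifitm3, chr7:141010745-141010994, minus strand: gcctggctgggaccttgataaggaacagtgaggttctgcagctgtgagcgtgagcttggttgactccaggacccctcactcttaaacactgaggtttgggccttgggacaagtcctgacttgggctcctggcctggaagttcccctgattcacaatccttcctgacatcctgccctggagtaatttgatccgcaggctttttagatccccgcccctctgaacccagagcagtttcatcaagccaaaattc
Isg15, chr4:156200819-156201068, minus strand: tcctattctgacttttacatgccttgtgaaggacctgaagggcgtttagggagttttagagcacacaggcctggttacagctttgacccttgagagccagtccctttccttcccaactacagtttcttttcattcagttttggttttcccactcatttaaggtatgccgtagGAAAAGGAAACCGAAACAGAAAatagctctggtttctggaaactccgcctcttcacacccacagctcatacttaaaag
The letters occurred once upstream of Ifitm2, beginning 46 bases before the start, and 3 times in overlap upstream of Isg15, beginning 78, 72 and 66 bases before it. They did not occur in the windows of Ifitm1 and Ifitm3. Of the members with a window in the table, 1 of 6 Ifitm genes, 7 of 15 other induced genes (Ifit1, Ifit3, Isg15, Oas1a, Oas3, Rsad2 and Bst2), 2 of 8 transcription factors (Irf2 and Stat2) and 0 of 4 receptors held a match, beside 3.46% of all 27025 genes and 2.98% of all 32851 windows. The letters TTCNNNGAA, the core of the GAS element of interferon gamma, occurred in 1, 4, 3 and 1 genes of these groups, beside 8.13% of all genes. A match is a run of letters and not a measured binding site.

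Ifitm1 and Ifitm3 were higher in LSC GFP+ cells on every array, and Ifitm2 was higher within each replicate number. Only 9 of the 19 other interferon-induced members were tested, and their differences were spread around 0, from -0.89 to 0.32. A further list of 20 tested interferon-induced genes leaned lower in LSC GFP+ cells, with 16 negative, 4 positive and a median of -0.32. The signals below are log2 values of the background-subtracted signal minus the 75th percentile of the array, so that 0 is the level of that percentile. Levels are set against each other only for the same probe.

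The Ifitm1 probe read 0.58, 0.77 and 0.87 in LSC GFP+ replicates 1, 2 and 3 and -1.07, -1.26 and -0.89 in LSC GFP- replicates 1, 2 and 3. All 3 LSC GFP+ arrays lay above the 75th percentile of their array and all 3 LSC GFP- arrays below it, with no overlap. The difference was 1.81 ± 0.20 on the log2 scale (SE, n = 3 per population), a 3.52-fold higher signal in LSC GFP+ cells. Over the whole array, 29 of the 37008 probes tested, or 0.0784%, had a difference as large or larger in this direction. The group was selected on such differences, so this share describes the value and supports nothing.

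The Ifitm3 probe, printed in 10 spots per array, read 7.45, 7.66 and 7.79 in LSC GFP+ cells and 6.48, 6.33 and 6.80 in LSC GFP- cells. The populations did not overlap, and the difference was 1.09 ± 0.21 (SE, n = 3), or 2.14-fold. Both populations were far above the 75th percentile, so that the gene was strongly expressed with and without GFP.

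The Ifitm2 probe read 4.11, 4.32 and 4.88 in LSC GFP+ cells and 3.80, 3.80 and 4.42 in LSC GFP- cells. The populations overlapped, since replicate 3 of LSC GFP- cells lay above replicates 1 and 2 of LSC GFP+ cells. Within replicate numbers 1, 2 and 3 the differences were 0.31, 0.52 and 0.46, all in one direction. The difference between the population means was 0.43 ± 0.28 (SE, n = 3), with an SE of 0.13 when the replicate number was a block.

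The remaining Ifitm genes were close to equal. Ifitm5 read -1.67, -2.42 and -3.06 in LSC GFP+ cells and -2.05, -2.55 and -3.09 in LSC GFP- cells, a spread within each population far larger than the difference of 0.18 ± 0.40 (SE). The brighter Ifitm7 probe read 9.25, 9.14 and 9.13 against 9.26, 9.28 and 9.02, with a difference of -0.01 ± 0.19. This is the probe whose 20-base runs recur in 51 other probes, and whether it also binds other transcripts was not tested. The dimmer Ifitm7 probe read 1.18, 0.43 and -0.10 against 0.86, 1.06 and 0.05, with a difference of -0.15 ± 0.39, so that neither probe separated the populations. Ifitm6 read -4.52, -5.67 and -5.92 against -5.17, -6.85 and -5.95. It was well above background on 1 of the 6 arrays, LSC GFP+ replicate 1, and was not tested.

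**Figure D1:**
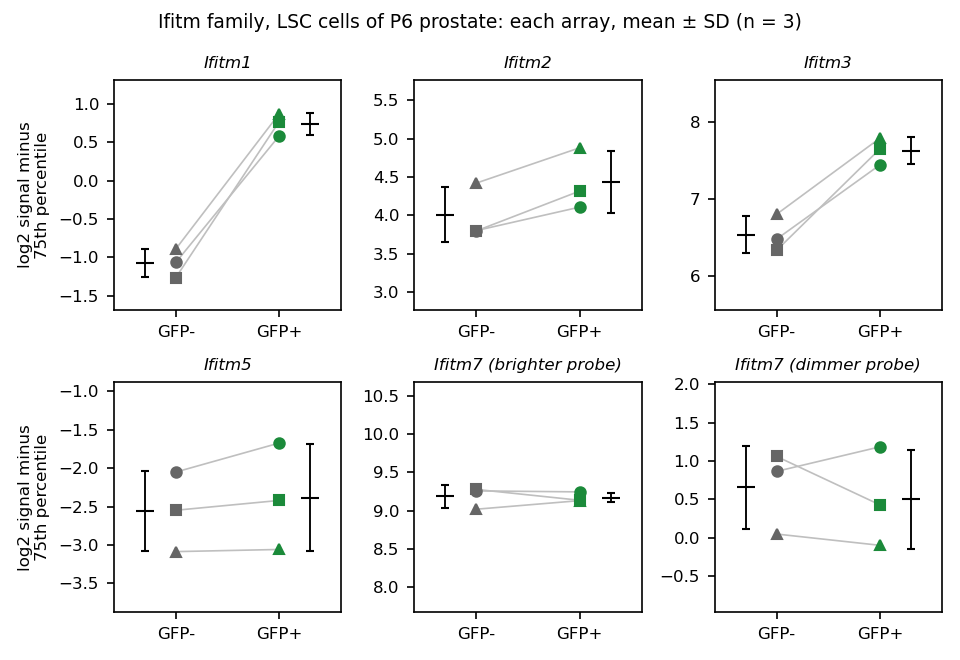
Log2 signal minus the 75th percentile of the array (y axis, own range per panel) for the 6 tested Ifitm probes in LSC GFP- cells (gray) and LSC GFP+ cells (green). Symbols are arrays (circle, square and triangle for replicates 1, 2 and 3), gray lines join equal replicate numbers, and bars give the mean ± SD. Ifitm1 and Ifitm3 do not overlap between the populations, Ifitm2 runs upward within every number but overlaps, and Ifitm5 and both Ifitm7 probes overlap.

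Ifitm5, Ifitm2, Ifitm1, Ifitm3 and Ifitm6 lie in this order in 1 cluster on chromosome 7, over 65.8 kb between the probes, whereas Ifitm7 lies on chromosome 16. The neighbours of the cluster were read within 150 kb on each side, a window chosen after the values were seen. Of 17 neighbouring genes tested, 10 had a positive and 7 a negative difference, with a median of 0.02. At an unadjusted p under 0.05 in limma, termed called from here on, 2 were higher in LSC GFP+ cells and 0 lower, beside 3.38% of all probes called higher and 4.53% called lower. They were B4galnt4, a glycosyltransferase gene, at 0.94 ± 0.22 (SE), and 1190003J15Rik at 0.70 ± 0.29, while Pkp3, a desmosomal plakophilin gene beyond the same end as B4galnt4, was at -0.08 ± 0.20.

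**Figure D2:**
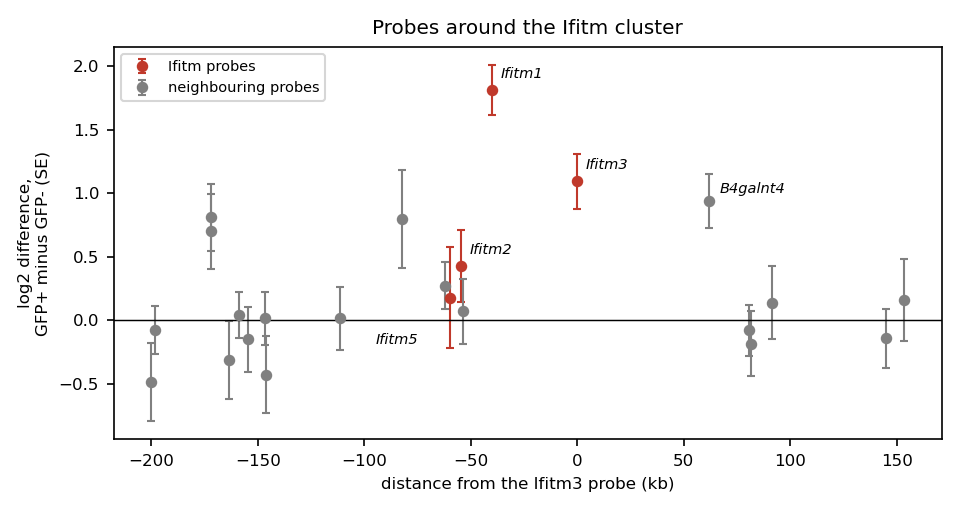
Log2 difference of LSC GFP+ minus LSC GFP- cells (y axis, bars SE) for tested probes, by distance in kb from the Ifitm3 probe (x axis), Ifitm probes in red and other probes in gray. Ifitm1 at 1.81 and Ifitm3 at 1.09 lie above all other probes of the window, of which B4galnt4 at 0.94 is the highest.

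Of the 37 members, 25 had a tested probe, meaning one that cleared the background on each array of either population, and all 25 cleared it on each of the 6 arrays. The other 12 members (Ifitm6, Ifit1, Ifit3, Oas2, Oas3, Oasl1, Oasl2, Mx1, Mx2, Usp18, Ifi44 and Irf5) were not. Of the 25, 11 had a positive and 13 a negative difference and Ddx58 was at 0.00, with a median of -0.01, against -0.004 over all probes tested. Without overlap, LSC GFP+ cells were higher in 2 and lower in 3, beside 6.61% and 5.65% of all probes tested. Past the unadjusted threshold were 2 higher, Ifitm1 and Ifitm3, and 2 lower, Bst2 and Ifngr1, beside the 3.38% and 4.53% given above, and nothing is read from these counts. Of the 37008 probes, 1250 were called higher and 1675 lower, and with each array scaled to its median 1471 and 1299. None of the members passed after Benjamini-Hochberg adjustment over all probes tested in limma, and 1 probe of the array did.

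With the replicate number as a block, 4 members were called higher (Ifitm1, Ifitm3, Ifitm2 and Ifngr2) and 5 lower (Bst2, Ifngr1, Irf1, Irf9 and Stat2). The number called over the whole array also went up with the block, from 2925 to 5479 probes, 2494 of them higher and 2985 lower. After adjustment with limma 0 passed. Over the 16 alternatives the difference of Ifitm1 ran from 1.50 to 1.91 and that of Ifitm3 from 0.99 to 1.23. The number of members called lower was 0 with median scaling, 0 without LSC GFP+ replicate 1 or LSC GFP- replicate 3, and 1 without LSC GFP+ replicate 2 or either of the first 2 LSC GFP- replicates. Without LSC GFP+ replicate 3 it was 2, with Irf9 in place of Ifngr1. The methods' t-test did not call Bst2 and called Isg15 in its place, and the differences of Bst2 ran from -1.15 to -0.66 and those of Ifngr1 from -0.67 to -0.47 over the 16 alternatives.

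**Figure D3:**
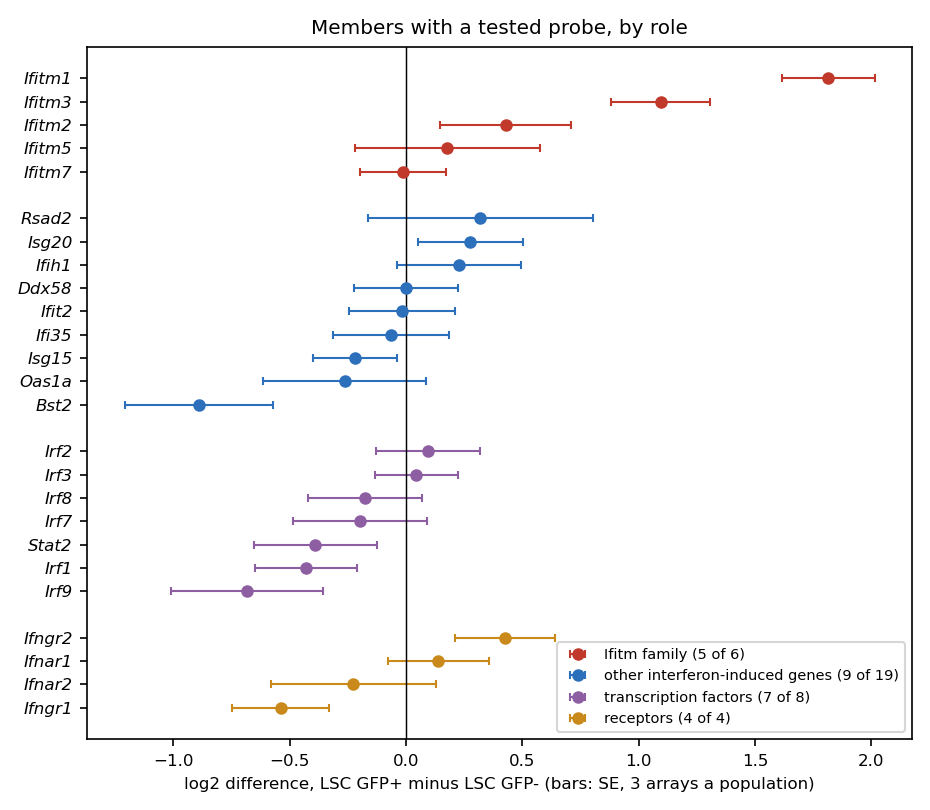
Log2 difference of LSC GFP+ minus LSC GFP- cells (x axis, bars SE, n = 3 per population) for the 25 members with a tested probe, at the brightest one, colored by role. Ifitm1 and Ifitm3 stand at 1.81 and 1.09, and all members outside the Ifitm family lie between -0.89 and 0.43.

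Of the 19 other interferon-induced genes, 9 were tested, with a median difference of -0.02 and a range from -0.89 to 0.32, 3 positive and 5 negative. The same median was 0.43 over the 5 tested Ifitm genes, which is the value of Ifitm2. The lowest of the induced genes was Bst2, whose product tetherin holds budding virus particles at the membrane. It read -0.61, -0.59 and 0.17 in LSC GFP+ cells and 0.59, 0.06 and 1.01 in LSC GFP- cells, with a difference of -0.89 ± 0.32 (SE). It was lower in LSC GFP+ cells within each replicate number, but LSC GFP+ replicate 3 lay above LSC GFP- replicate 2.

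Isg15, a ubiquitin-like modifier, read -0.68, -0.66 and -0.65 in LSC GFP+ cells and -0.55, -0.31 and -0.47 in LSC GFP- cells. The populations did not overlap, but the difference was small, at -0.22 ± 0.18 (SE). Its second probe read -4.53, -4.14 and -3.88 against -3.66, -3.42 and -3.65, also without overlap and in the same direction, at -0.60 ± 0.23. Oas1a, a sensor of double-stranded RNA that makes oligoadenylates, read -3.13, -3.94 and -3.09 against -3.77, -2.79 and -2.81, which overlapped, at -0.26 ± 0.35.

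Rsad2, which encodes the antiviral enzyme viperin, had the highest value of these 9 genes, at 0.32 ± 0.48 (SE). Its arrays read -3.74, -2.34 and -2.40 in LSC GFP+ cells and -3.51, -3.65 and -2.28 in LSC GFP- cells, and only replicate number 2 was higher in LSC GFP+ cells. Isg20, an RNA exonuclease gene, read -0.09, 0.17 and 0.26 against -0.29, -0.38 and 0.18, at 0.28 ± 0.23. Its second probe gave 0.27 ± 0.19 and did not overlap. Ifih1, which encodes the RNA sensor MDA5, read -2.96, -2.86 and -2.36 against -3.32, -2.96 and -2.59, at 0.23 ± 0.27. Every one of the 3 genes overlapped at its brightest probe, and Isg20 and Ifih1 were higher in LSC GFP+ cells within each replicate number. The others, Ddx58, Ifit2 and Ifi35, lay between -0.07 and 0.00, and the sign of Ifit2 and Ifi35, like that of the brighter Ifitm7 probe and of the median of the 9 genes, turned with median scaling. A second probe of Ddx58, which encodes the sensor RIG-I, gave -0.41 ± 0.27.

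Most classical members were dim or below background in both populations. Ifit1 and Mx1 were well above background on 0 of 6 arrays. Oas3 and Oasl1 were so on 1 LSC GFP+ array and no LSC GFP- array, Mx2 and Ifi44 on 1 LSC GFP- array and no LSC GFP+ array, and Ifit3 and Usp18 on some arrays of each. Oas2 and Oasl2 cleared the background on 2 of 3 LSC GFP- arrays and on no LSC GFP+ array. Each LSC GFP+ array was set to its lowest measurable signal, or to the probe's own signal where that was higher. Against this the mean of all 3 LSC GFP- arrays was 1.27-fold for Oas2 and 1.04-fold for Oasl2. By the same rule it was 1.18-fold for Mx2 and 0.98-fold for Ifi44. These means include LSC GFP- arrays below background, so the values are not firm bounds. No difference was tested for any of these genes at this signal.

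The transcription factors leaned to lower values in LSC GFP+ cells, 5 of the 7 tested being negative and 2 positive, with a median of -0.20. Irf9, the DNA-binding partner of Stat2, read -0.82, -0.24 and 0.40 in LSC GFP+ cells and 0.14, 0.57 and 0.68 in LSC GFP- cells, at -0.68 ± 0.33 (SE). It was lower within each replicate number, with overlap between the populations. Stat2 read -0.50, 0.10 and -0.12 against -0.17, 0.57 and 0.26, at -0.39 ± 0.26, and it too was lower within each number and overlapped. Irf1, an activator of interferon and antigen presentation genes, read 0.87, 1.46 and 1.25 against 1.51, 1.63 and 1.74, without overlap, at -0.43 ± 0.22. Its second probe gave -0.65 ± 0.63 and overlapped. Irf2, which can oppose Irf1 at the same sites, read -0.96, -0.60 and -0.50 against -1.02, -0.78 and -0.54, at 0.10 ± 0.22, and overlapped. Irf3, Irf7 and Irf8 lay between -0.20 and 0.05, and Irf5 was well above background on 3 of 6 arrays.

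The 4 receptor subunits were all measured, and the differences of the 2 chains of the interferon gamma receptor had opposite signs. Ifngr1, the ligand-binding chain, read -0.37, -0.04 and -0.26 in LSC GFP+ cells and 0.05, 0.43 and 0.46 in LSC GFP- cells, without overlap, at -0.54 ± 0.21 (SE), or 1.45-fold lower. Ifngr2, the signalling chain, read 3.56, 3.80 and 3.93 against 3.19, 3.22 and 3.62, at 0.43 ± 0.22, or 1.34-fold higher. It was higher within each replicate number, but LSC GFP- replicate 3 lay above LSC GFP+ replicate 1. The type I receptor showed no such values. Ifnar1 read -0.14, 0.29 and 0.39 against -0.12, 0.12 and 0.11, at 0.14 ± 0.22, its other 2 probes gave -0.16 and -0.04, and Ifnar2 was at -0.23 ± 0.35.

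**Figure D4:**
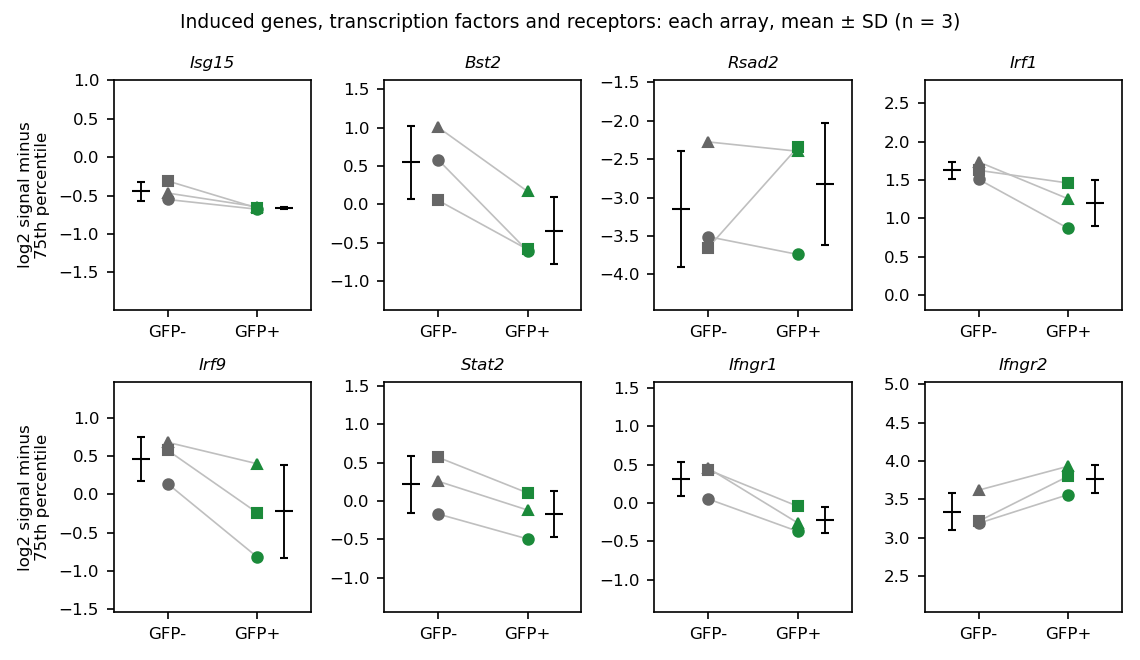
Log2 signal minus the 75th percentile of the array (y axis, own range per panel) for 8 members outside the Ifitm family, LSC GFP- cells gray and LSC GFP+ cells green, symbols and lines as in the plot of the Ifitm probes, bars mean ± SD. Isg15, Irf1 and Ifngr1 are lower in LSC GFP+ cells without overlap, Bst2, Irf9 and Stat2 are lower within each replicate number, Ifngr2 is higher within each, and Rsad2 follows neither pattern.

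The wider pathway was read from 6 further lists of genes drawn from general knowledge, with 72 tested genes. Over these lists 2 genes were called higher and 8 lower in LSC GFP+ cells with limma, 2 of 72 and 8 of 72, beside 3.38% and 4.53% of all probes. None passed after adjustment, the lowest adjusted limma p being 0.184, for Cmpk2. Over all tested probes of these genes the lowest adjusted limma p was 0.099, at the second Cxcl10 probe, which cleared the background on no LSC GFP- array. Of the called genes, Cd274 and Ifi204 passed the background filter only through the population where they were higher. With the replicate block 3 were called higher and 15 lower, beside 2494 higher and 2985 lower of all 37008 probes with the block. The block counts of the single lists below stand beside these same numbers. The number called lower was 15 without LSC GFP+ replicate 3 and was 5 without LSC GFP- replicate 2.

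Of the ligands, 8 of the 15 on the array were tested and 0 were called in either direction, with a median of -0.32. Among the further receptors and signal transducers, 1 of 7 was called lower and 0 higher. This was Jak2, the kinase bound to Ifngr2, which read -0.24, 0.14 and 0.16 in LSC GFP+ cells and 0.54, 0.60 and 0.50 in LSC GFP- cells, without overlap, at -0.53 ± 0.20 (SE). The call was lost with median scaling and without LSC GFP+ replicate 1 or any 1 of the LSC GFP- replicates, over which the difference kept its sign. Jak1 was at -0.12 ± 0.23 and overlapped. Of 6 inhibitors and 7 genes of nucleic acid sensing, 0 were called, and their medians were 0.08 and -0.14.

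Of 20 further interferon-induced genes, 16 were negative and 4 positive, with a median of -0.32, and 5 were called lower and 0 higher, or 7 and 0 with the replicate block. Ifi204, a DNA-binding protein of the p200 family, read -4.73, -3.83 and -3.47 in LSC GFP+ cells and -1.81, -2.99 and -1.73 in LSC GFP- cells, without overlap, at -1.84 ± 0.43 (SE), and was well above background on 2 of the 3 LSC GFP+ arrays. With normexp background correction the difference was -0.80. Xaf1, a proapoptotic gene, read -3.92, -2.62 and -3.21 against -2.55, -1.44 and -1.69, without overlap, at -1.36 ± 0.40, and was not called by the methods' t-test. Lgals3bp, a secreted galectin ligand, read -1.67, -0.93 and -0.90 against -0.45, -0.16 and 0.12, without overlap, at -1.01 ± 0.28, with -1.53 ± 0.27 at its second probe. These 3 genes were thus lower on every LSC GFP+ array than on any LSC GFP- array. Cmpk2, a mitochondrial nucleotide kinase gene that neighbours Rsad2, read -1.45, -1.77 and -1.89 against -0.84, -0.87 and -0.51, without overlap, at -0.96 ± 0.21, and its second probe gave -0.92 ± 0.23. Parp14, an ADP-ribosyltransferase gene, was at -0.55 ± 0.23 with overlap, and its call was lost in 8 of 16 alternatives, among them those without LSC GFP+ replicate 1 or 2 and those without LSC GFP- replicate 2 or 3.

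Of 24 genes of the interferon gamma response and antigen presentation, 18 were negative and 6 positive, with a median of -0.23, and 2 were called in each direction. With the replicate block 3 were called higher (Cxcl10, Cd274 and H2-Eb1) and 7 lower (Gbp6, Irgm1, B2m, Igtp, Psmb8, Psmb9 and Psmb10). Igtp at -1.08 ± 0.52 (SE without the block) and the immunoproteasome subunits Psmb8 at -0.77 ± 0.42, Psmb9 at -0.83 ± 0.42 and Psmb10 at -0.57 ± 0.33, named after their values were seen, were lower within each replicate number. The chemokine gene Cxcl10 read -2.45, -2.23 and -2.29 in LSC GFP+ cells and -3.73, -2.59 and -4.16 in LSC GFP- cells, without overlap, at 1.17 ± 0.38 (SE), and its second probe cleared the background on 3 of 3 LSC GFP+ arrays and on no LSC GFP- array. Cd274, which encodes the ligand PD-L1, read -3.31, -3.59 and -3.43 against -4.34, -4.11 and -5.01, without overlap, at 1.04 ± 0.27, and was well above background on 1 of the LSC GFP- arrays. Neither gene was called with normexp background correction, at differences of 0.44 and 0.29, and the methods' t-test did not call Cxcl10. Gbp6, a guanylate-binding protein, read -2.62, -1.55 and -1.41 against -0.56, -0.76 and -0.21, without overlap, at -1.35 ± 0.34. Irgm1, an immunity-related GTPase, was at -0.79 ± 0.30, without overlap, and its call was lost in 7 of 16 alternatives, including the fits that lacked LSC GFP+ replicate 1 and replicates 2 or 3 of the LSC GFP- cells. Its second probe gave -0.29 ± 0.43.

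The class I molecules themselves were even. H2-K1 was at -0.02 ± 0.28 (SE) and H2-D1 at 0.06 ± 0.28. B2m, their shared light chain, read 3.02, 3.93 and 4.72 in LSC GFP+ cells and 4.09, 4.76 and 5.18 in LSC GFP- cells, at -0.79 ± 0.45. It overlapped between the populations and was lower within each replicate number. It was not called in limma with all arrays and no block. It was called with the replicate block, at an unadjusted limma p of 0.00569, and without LSC GFP+ replicate 3.

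**Figure D5:**
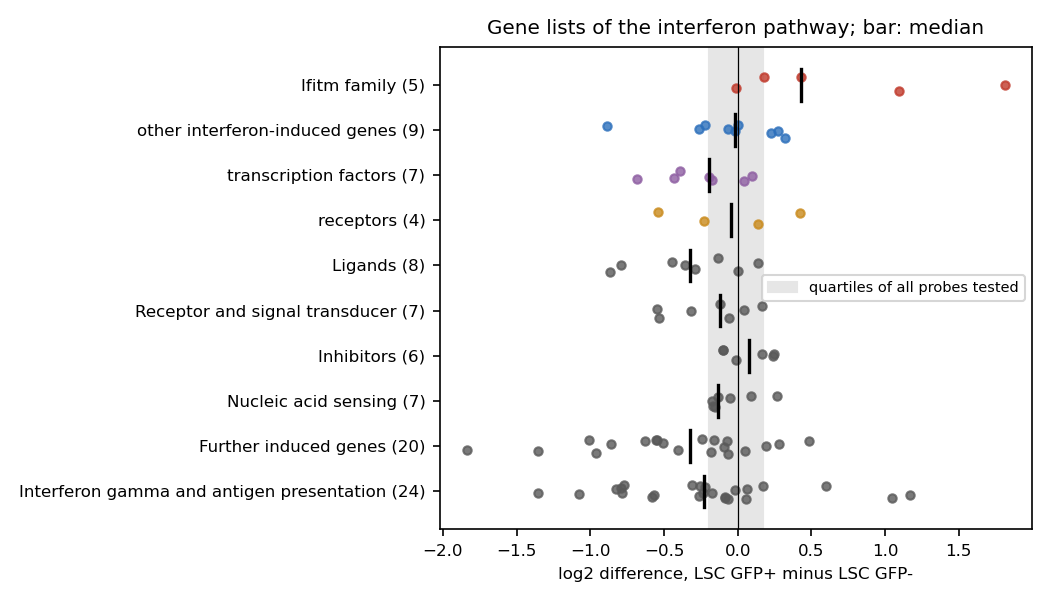
Log2 difference of LSC GFP+ minus LSC GFP- cells (x axis) of each tested gene, by group of members (colored) and by further list of the pathway (gray), with the number of tested genes in brackets, medians as black bars and the quartiles of all probes tested (-0.19 and 0.17) shaded. The Ifitm family has the highest median of the 10 rows, at 0.43, and the ligands and further induced genes the lowest, at -0.32 each. The Ifitm median is the value of Ifitm2, which overlaps between the populations. The family was selected on these differences, so its place among the rows supports nothing.

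Array probes measure RNA of whole sorted samples, so that fewer cells of a type and less RNA per cell cannot be told apart, and markers of other cells are set beside these values. Of the leukocyte list, 13 of 14 genes were on the array and 10 tested, with 0 called in either direction and a median of -0.04. Its signal, summed on the linear scale relative to the 75th percentile, was 243 to 321 in LSC GFP+ cells and 264 to 303 in LSC GFP- cells, most of it from 1 Itgam probe. Without Itgam it was 30.7 to 34.2 and 32.8 to 38.8. Most of that came from 1 Csf1r probe, with means of 4.69 in LSC GFP+ and 4.62 in LSC GFP- cells. The other Csf1r probes had means of -1.69 and -3.80 in LSC GFP+ cells and -1.60 and -3.69 in LSC GFP- cells. The sums thus say little about the other leukocyte markers, and a sum without both genes was not taken. Ptprc, the gene of the sorting marker CD45, was at -0.05 ± 0.18 (SE), Cd52 was at -1.14 ± 0.56, lower in LSC GFP+ cells within each replicate number, and Lyz2 and Laptm5 were not well above background. All 5 smooth muscle markers were called lower in LSC GFP+ cells, with a median of -1.68 and a summed signal of 5.93 to 9.54 against 18.5 to 35.7. Of the 7 fibroblast markers 5 were called lower and 1 higher, with a median of -1.97 and a summed signal of 18.6 to 24.9 against 20.9 to 58.9. The basal keratins Krt5, Krt14 and Krt15 were called higher. These marker counts stand beside 3.38% of all probes tested called higher and 4.53% called lower. Thus markers of stroma moved with Bst2, Ifngr1 and the lower genes of the pathway lists, and basal markers with Ifitm1 and Ifitm3. The part of these markers in the differences was not tested. By flow cytometry, the study reported only CD24+ epithelial cells among LSC cells, and little or no Sca-1 and CD49f on its brightly GFP-positive smooth muscle cells. Which cells the stromal RNA came from was not tested. Ly6a, the gene of the sorting marker Sca-1 and itself known to be inducible by interferon, read 1.71, 2.66 and 3.51 against 2.52, 2.90 and 3.55, which overlapped, at -0.36 ± 0.46.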

How the data were processed

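LSC GFP+ and LSC GFP- cells were compared on 6 one-colour arrays, 3 independent samples each. Per the file headers, the deposited intensity values are linear processed signals of Feature Extraction 11.0.1.1 (the submitters' processing notes name 10.7.3.1), background-subtracted and not normalized between arrays. The authors' table of the whole series holds the same intensity values, rounded. Probe positions are mm9.

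Signals were log2-transformed and centred on the 75th percentile of their array. Outlier spots (123 to 154 per array) were left out and spots of a probe averaged. Of 55681 probes, 36663 to 42132 per array were well above background. A probe was tested when it was so on all 3 arrays of a population. limma 3.58.1 (R 4.3.3) was used two-sided with Benjamini-Hochberg adjustment, a choice made because the methods name Student's t-test and the study gives no scaling and no criterion for its probe filter. The number of arrays limits the precision, and 3 against 3 allows an exact permutation p of 0.1 at the smallest. A gene was represented by its brightest tested probe. Of 46 member probes, 42 matched RefSeq by accession, all to the same symbol. The members and all lists were chosen with earlier results of these data known.

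Every array is given for all Ifitm probes, for the 6 highest and 6 lowest other members and for those without overlap. Of the pathway genes, those called and Jak1, B2m, H2-K1 and H2-D1 are named, and 1 further gene of that rule is not reported here. Ifitm10 was not analysed here. Deviations of samples with the same replicate number correlated at 0.43, 0.28 and 0.67 across probes, and those with different numbers at -0.55 to 0.22. Deviations from a population mean cancel out within it, which ties these correlations to each other, so pairing by number was not settled. The sample labels alone give the number. The main fit left it out, and SEs and calls are without it unless the block is named. The alternatives were normexp correction with an offset of 50, quantile and median scaling, the rounded table, 2 other filters, the methods' t-test, an intensity trend, the replicate block, probe means per gene, and each array left out. The code was tested on simulated data.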

Additional observations from a re-analysis of the deposited data

How the results depend on the processing

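The medians of the Ifitm family (0.32 to 0.64) and of the other interferon-induced genes (-0.07 to 0.05) moved in every alternative by less than the SD of the per-array medians within a population. The replicate block called 5479 probes instead of 2925, 4 member genes higher instead of 2 and 5 lower instead of 2. Median scaling called 0 member genes lower. With one array left out, 2077 to 4049 probes were called, 2 to 3 member genes higher and 0 to 2 lower. Of the other pathway genes, 2 were called higher, but 0 with normexp correction and 1 each with the stricter filter (background cleared on 6 of 6 arrays) and with the methods' t-test. The 8 called lower became 5 with median scaling, 5 with the methods' t-test and 15 with the replicate block, and 5 to 15 with one array left out. The alternatives for these pathway genes were added after seeing the data. None of the called members and called pathway genes turned its direction in these alternatives, which were not run for the neighbours of the Ifitm cluster and the markers. The cause of these shifts was not tested. Signal over background limits the 12 members without a tested probe, for which no difference was tested.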
